A study of Mus musculus with 28 samples.

Results

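This report covers 10 genes that control breakdown of the extracellular matrix, 6 matrix metalloproteinases (Mmp2, Mmp3, Mmp9, Mmp10, Mmp14 and Mmp15) and 4 tissue inhibitors of metalloproteinases (Timp1, Timp2, Timp3 and Timp4), in endothelial and mural cells of the mouse brain, taken from tumor-free mice and from mice with experimental brain metastasis (BrM). The genes were listed by name, and all 10 were found by Ensembl gene ID and symbol among the 53647 gene IDs of the count table. The list was made with earlier results of these data known. Counts and medians of the 10 beside those of all genes are therefore descriptions and no test of the family. The comparisons ask how endothelial and mural cells of a metastasis differ from those of non-tumor brain.

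Every mouse carried PDGFRβ-CreERT2 and the Rosa-tdTomato reporter, and per the labels tamoxifen was given daily on consecutive days to mark PDGFRβ-expressing cells in red. In this design a mural cell is therefore any cell in which the Pdgfrb promoter drove the recombinase, which includes pericytes, smooth muscle cells and fibroblasts. Breast BrM was grown from PyMT-BrM3 cells and lung BrM from Sv2T3-BrM1 cells, both injected into the heart, so each tumor type is represented by 1 cell line. Non-tumor brain is the control. The labels give no age for the mice. Cells free of CD45, CD11B and EPCAM were sorted as CD31+ (endothelial) or as PDGFRb-tdTom+ (mural). The CD31 sort gave 5 libraries from non-tumor brain, 5 from breast BrM and 5 from lung BrM, and the PDGFRb sort gave 5, 4 and 4. Behind these 28 libraries stand 15 mouse labels, of which 2 lung labels name a pair of mouse numbers, and 13 labels occur in both sorts. Levels are given as CPM, the usual unit of counts scaled to the size of the library, on 1 scale for all 28 libraries. Libraries held 7105171 to 23934038 counts, and 3 counts, the floor used for ratios to an empty group, corresponded to 0.119 to 0.498 CPM. Numbers of genes detected in a library include every gene with at least 1 count.

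Matrix metalloproteinases are zinc-dependent enzymes made as inactive precursors whose prodomain must be removed. Mmp2 and Mmp9 are the gelatinases, which cleave denatured collagen and the type IV collagen of basement membranes. Mmp3 and Mmp10 are the stromelysins, which cleave proteoglycans, laminin and fibronectin and activate other precursors. Mmp14 and Mmp15 are anchored in the cell membrane, and Mmp14 cleaves fibrillar collagen and activates proMMP2 at the cell surface together with TIMP2. The TIMPs bind the active site of these enzymes. TIMP1 inhibits membrane-type enzymes poorly, TIMP3 stays bound to the matrix, and TIMP4 has a narrow tissue distribution that includes brain. At the vessel wall the balance of these proteins sets the turnover of the basement membrane that endothelial cells and pericytes share.

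The genes lie on chromosome 2 (Mmp9), 6 (Timp4), 8 (Mmp2 and Mmp15), 9 (Mmp3 and Mmp10), 10 (Timp3), 11 (Timp2), 14 (Mmp14) and X (Timp1) of the mouse genome. RefSeq promoter windows on GRCm38.p6 were matched by symbol for 8 of the 10 genes, and Mmp2 and Mmp9 had none. The 4 stretches below are shown because these genes have the clearest contrast in where they were read: the stromelysin pair was read almost entirely in the PDGFRb sort, while Mmp14 and Timp1 were high in both sorts of BrM. Each is the 120 bases upstream of the annotated start, 5′ to 3′ on the gene's own strand, which is + for all 4. Capitals mark the AP-1 letters TGAGTCA. They also mark the TATA box letters TATAAA. In Mmp14 they mark the GC box letters GGGCGG. In Timp1 they mark the same box as read on the other strand, CCGCCC. The stretches are at chr9:7445702-7445821 (Mmp3), chr9:7502222-7502341 (Mmp10), chr14:54431478-54431597 (Mmp14) and chrX:20870046-20870165 (Timp1).
Mmp3: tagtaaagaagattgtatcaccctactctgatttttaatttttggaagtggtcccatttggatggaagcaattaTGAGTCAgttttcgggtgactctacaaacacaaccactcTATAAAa
Mmp10: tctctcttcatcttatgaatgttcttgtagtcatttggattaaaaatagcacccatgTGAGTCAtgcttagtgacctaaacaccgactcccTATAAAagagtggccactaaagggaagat
Mmp14: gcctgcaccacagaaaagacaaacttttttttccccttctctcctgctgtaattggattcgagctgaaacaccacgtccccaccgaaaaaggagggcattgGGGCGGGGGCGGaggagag
Timp1: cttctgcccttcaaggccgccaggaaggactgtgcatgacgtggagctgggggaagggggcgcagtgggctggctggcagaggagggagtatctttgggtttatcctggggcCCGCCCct

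Mmp3 and Mmp10 each held an AP-1 heptamer, starting 46 and 63 bases before the start, and a TATA hexamer, 7 and 29 bases before it. Counting both strands, AP-1 letters were present in the 250 bases upstream in 4.46% of 32851 promoters, TATA letters in 12.4% and both in 0.721%. The other 6 genes with a window held neither. Mmp14 held 2 GC boxes in tandem and Timp1 held 1. Mmp15, Timp2 and Timp3 held the letters too, so 5 of the 8 genes with a window had them, beside 32.7% of promoters. A match is a description of the letters only.

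The libraries were first checked against the sort genes and the markers of other cell types. Pecam1, which encodes CD31, stood at 592 to 1437 CPM in the 15 CD31 libraries and at no more than 11.5 CPM in the PDGFRb libraries. Pdgfrb stood at 302 to 1470 CPM in the PDGFRb libraries of non-tumor brain and breast BrM. In the PDGFRb sort of lung BrM it stood at 465.7 CPM in mouse 51435 but only at 36.0, 36.9 and 42.2 CPM in mice 55169-70, 54957 and 56195-56520. In these 3 libraries the summed level of 10 pericyte markers was 197 to 332 CPM, against 7582 CPM in mouse 51435 and 5309 to 24432 CPM in the PDGFRb libraries of the other groups, so their defining mural RNA was largely absent. Summed RNA of 9 epithelial genes, which these vascular cells are not known for, was 0.175 to 8.89 CPM in the non-tumor CD31 sort, 155 to 3063 in breast and 96.4 to 2242 in lung BrM. In the PDGFRb sort it was 5.24 to 79.5 CPM without tumor, 1153 to 4304 in breast and 6126 to 9973 in lung BrM. The 9 genes did not all rise in that sort. In lung BrM Cldn3 stood at 0.410 to 2.04 CPM, against 0 to 15.4 CPM without tumor. Cldn4 stood at 0 to 1.65 against 0 to 4.22 CPM and Cldn7 at 0 to 0.226 against 0 to 4.53 CPM. Krt8, Krt18, Krt19 and Cdh1 stood highest there. In breast BrM Krt19 stood at 0 to 2.92 against 0.253 to 3.42 CPM. Cldn3 and Cldn4 also did not rise in the CD31 sort of lung BrM. The 6126 CPM belonged to mouse 51435, which was thus also high in epithelial RNA. The epithelial sum thus rose with BrM in both sorts, and the part of this RNA in the results below was not tested. In bulk samples, fewer cells of a type and less RNA per cell cannot be told apart. For mouse 54135 the title and the cell type label name opposite sorts, and the library titled CD31 had 1362 CPM of Pecam1 and 0.227 CPM of Pdgfrb. In breast BrM the smallest library was the PDGFRb sort of mouse 51950, with 9174 genes detected, and the CD31 lung library of mice 56195-56520 detected 12601 genes, fewer than any other CD31 library.

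In endothelial cells of both BrM types, Mmp14 and Timp1 rose together from near the limit of detection to levels among the higher of the 10 genes. The log2 change of Mmp14 was 7.23 ± 0.50 (SE) in breast and 7.57 ± 0.50 in lung BrM, and that of Timp1 was 5.19 ± 0.47 and 5.79 ± 0.49. Mmp15 also rose in breast BrM, by a smaller amount, and Timp3 fell in lung BrM. In breast BrM, 3 of the 7 genes that could be tested were higher than in non-tumor brain and 0 lower, where 18.6% of all genes tested were higher and 11.4% lower. In lung BrM, 2 were higher and 1 lower, against 20.4% higher and 14.5% lower over all genes. A gene was called at an adjusted p under 0.05 in edgeR's quasi-likelihood test, adjusted over all genes. The median log2 change of the 7 genes was 0.85 in breast and 0.87 in lung BrM, beside 0.04 and -0.003 over all genes tested. Between lung and breast BrM 0 of the 7 genes were called in this sort, where 0.578% of genes were higher and 1.55% lower in lung. Mmp3, Mmp9 and Mmp10 were too low in the CD31 sort to be tested. The breast and lung comparisons share their 5 non-tumor libraries.

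In mural cells of breast BrM, 4 of the 10 genes were higher than in controls and 0 lower, beside 6.30% of all genes higher and 2.69% lower. The 4 were Mmp9, Mmp10, Mmp14 and Timp1. In the lung BrM libraries of the PDGFRb sort, Mmp3, Mmp9, Mmp14, Timp1 and Timp2 were higher and Mmp15 and Timp3 lower, 5 and 2 of 10, beside 9.91% and 7.58% of all genes. The median log2 change of the 10 genes was 2.11 in breast and 2.22 in lung BrM, beside -0.16 and -0.03 over all genes. Lung and breast BrM differed at Timp2, higher in lung, and Mmp15, lower in lung, where 3.08% of all genes were higher and 2.39% lower. In either sort, lung and breast BrM libraries share no date in the column names. Tumor type and date therefore cannot be told apart in a direct comparison of the BrM types. When mouse 51435 alone stood for lung BrM, with its spread taken from the other PDGFRb groups, the log2 change of Timp1 against non-tumor brain was 5.42. That fit has 1 library in the lung group, so its calls are not counted here. With the date in the column names as a covariate, whose meaning is not stated, 0 of the 10 genes were called in breast and 2 in lung BrM. Of all genes tested in that fit, 0.675% were called in breast and 3.39% in lung BrM.

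**Figure D1:**
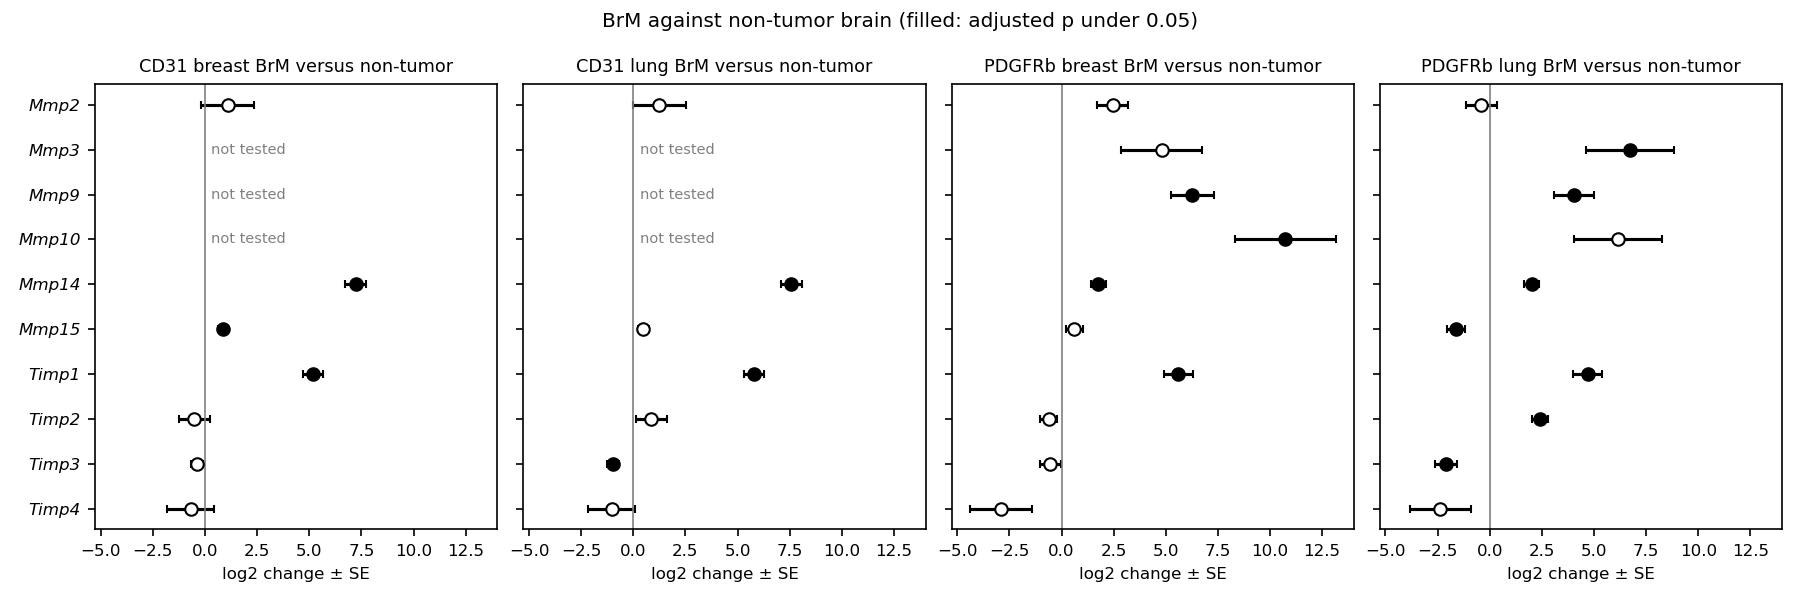
Log2 change ± SE of each gene in BrM against non-tumor brain, by sort and tumor type, with filled points for an adjusted p under 0.05 in edgeR's test. Mmp14 and Timp1 are filled in all 4 panels, and the Mmp14 change is 7.23 and 7.57 in the CD31 sort but 1.76 and 2.02 in the PDGFRb sort.

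Mmp14, the membrane-type enzyme that cleaves fibrillar collagen, was close to absent from normal endothelial cells. Its level in the non-tumor CD31 sort was 0.373, 0.646, 1.14, 1.28 and 2.51 CPM. Breast BrM libraries stood at 85.0, 135, 174, 216 and 274 CPM, and lung BrM libraries at 142, 171, 185, 209 and 383 CPM. Every BrM library was above every non-tumor library. The fitted rise was 149.8-fold in breast (adjusted p = 3.3e-08) and 189.9-fold in lung BrM (adjusted p = 2.3e-08). It stayed called under each of 19 alternatives, with log2 changes of 7.01 to 7.69 and 6.49 to 8.05.

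Epithelial RNA is given beside Mmp14 for each endothelial BrM library. In breast BrM, epithelial sums of 155, 297, 336, 1188 and 3063 CPM (mice 52599, 53142, 52865, 51950 and 53072) stood beside 216, 274, 174, 135 and 85.0 CPM of Mmp14. In lung BrM, epithelial sums of 96.4, 235, 588, 1304 and 2242 CPM (mice 55169-70, 56195-56520, 54957, 51697 and 51435) stood beside 209, 142, 185, 383 and 171 CPM. The part of epithelial RNA in the Mmp14 level was not tested. Pericyte markers, which summed to 15.5 to 41.7 CPM in the non-tumor CD31 sort, summed to 25.5 to 92.5 CPM in breast and 25.8 to 228 CPM in lung BrM, and their part was not tested.

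The PDGFRb sort held Mmp14 in normal brain and more of it in both BrM groups, of which the lung group includes the 3 libraries with little pericyte RNA. Non-tumor PDGFRb libraries stood at 47.5, 48.5, 59.2, 64.3 and 68.6 CPM, breast BrM libraries at 80.7, 123, 185 and 382 CPM, and lung BrM libraries at 184, 220, 233 and 267 CPM. Neither BrM group overlapped the non-tumor group. The log2 change was 1.76 ± 0.36 in breast (adjusted p = 0.0089) and 2.02 ± 0.36 in lung BrM (adjusted p = 0.0022). The lung call was lost with mouse 51435 alone (1.64, adjusted p = 0.34), and both calls were lost with date as a covariate (1.78, adjusted p = 0.23, and 2.31, adjusted p = 0.11).

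The rise of Mmp14 in one sort was next set against that in the other, in 1 fit over all 6 groups. The breast BrM effect was smaller in the PDGFRb than in the CD31 sort by a log2 difference of -5.47 ± 0.63 (adjusted p = 2.4e-06), and the lung BrM effect by -5.54 ± 0.63 (adjusted p = 1.1e-06). Among the 10 genes, Mmp14 was the only one called in this test for breast BrM, with 0 higher and 1 lower, beside 2.35% and 3.57% of all genes. For lung BrM 0 were higher and 2 lower, Mmp14 and Mmp15, beside 3.77% and 6.35%. With mouse 51435 alone the lung group of the PDGFRb sort had 1 library, and its calls are not counted. DESeq2 called 2 genes for breast BrM, adding Mmp9 at 6.71 (adjusted p = 0.0043), and limma-voom also called 2, adding Mmp10 at 7.35 (adjusted p = 0.026).

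Mmp15, the related membrane-type enzyme, was read in all 28 libraries and moved far less. In the CD31 sort it stood at 28.6 to 53.3 CPM in non-tumor brain, 53.8 to 86.2 CPM in breast and 28.6 to 80.6 CPM in lung BrM. The lowest breast BrM library was just above the highest non-tumor one, and lung BrM overlapped both. The log2 change was 0.85 ± 0.26 in breast (adjusted p = 0.019) and 0.47 ± 0.26 in lung BrM (adjusted p = 0.17). The breast call ended without CD31 breast mouse 52865 (adjusted p = 0.052) and reached 0.05 without non-tumor mouse 54132. Date as a covariate gave 0.72 (adjusted p = 0.22).

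Mmp15 in the PDGFRb sort stood at 27.7, 33.3, 33.8, 37.9 and 49.1 CPM in non-tumor brain and at 31.8, 51.8, 57.5 and 78.0 CPM in breast BrM. Lung BrM libraries were lower than all of these, at 9.43, 11.2, 12.2 and 13.02 CPM. The highest of these, 13.02 CPM, belonged to mouse 51435, which had 465.7 CPM of Pdgfrb, against 856 to 1470 CPM in non-tumor brain. The part of low mural RNA in the Mmp15 level was not tested. The log2 change against non-tumor brain was -1.62 ± 0.42 (adjusted p = 0.017) and against breast BrM -2.24 ± 0.44 (adjusted p = 0.011). Mouse 51435 alone gave -1.52 (adjusted p = 0.69) and -2.07 (adjusted p = 0.98). The call against non-tumor brain also ended without mouse 54957 (adjusted p = 0.055) or 55169-70 (adjusted p = 0.054), without a filter on low counts (adjusted p = 0.058) or with date as a covariate (adjusted p = 0.42). The lung BrM effect on Mmp15 was lower in the PDGFRb than in the CD31 sort by -2.09 ± 0.44 (adjusted p = 0.0024), and by -2.05 (adjusted p = 0.26) with mouse 51435 alone.

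**Figure D2:**
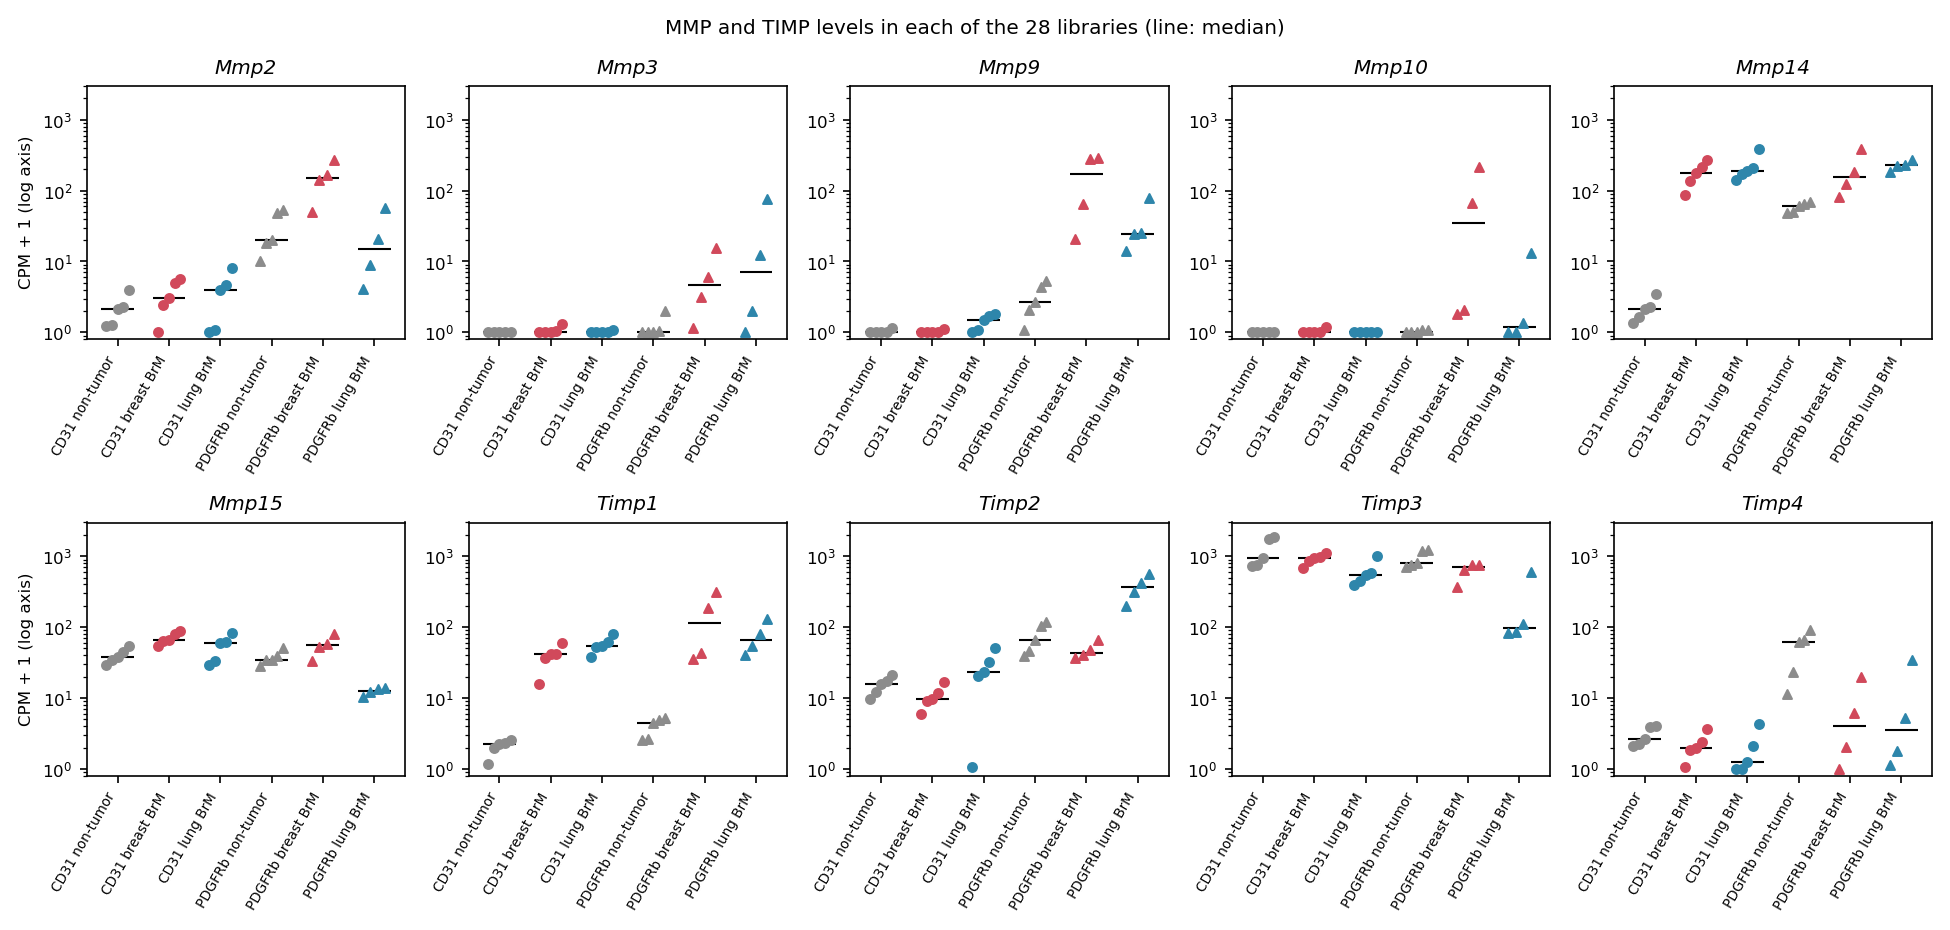
Level of each gene in each of the 28 libraries as CPM + 1 on a log axis, with circles for the CD31 sort, triangles for the PDGFRb sort and a line at the median of each group. Mmp14 and Timp1 in the CD31 sort are higher in every BrM library than in every non-tumor library, and mouse 51435 is the highest PDGFRb lung BrM library for Mmp3, Mmp9, Mmp10, Timp3 and Timp4.

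The gelatinases were read mainly in the PDGFRb sort. Mmp9, which degrades type IV collagen and is stored by neutrophils in many tissues, had 3 counts in the 5 non-tumor CD31 libraries, 2 in the 5 breast BrM libraries and 30 in the 5 lung BrM libraries. In the non-tumor PDGFRb sort it stood at 0.0884, 1.08, 1.71, 3.38 and 4.27 CPM. Breast BrM libraries reached 20.1, 64.7, 275 and 285 CPM. Lung BrM libraries reached 12.9, 23.2, 23.9 and 79.0 CPM. Neither BrM group overlapped the non-tumor group.

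Mmp9 in the PDGFRb sort was 77.6-fold higher in breast (log2 change 6.28 ± 1.05, adjusted p = 0.0027) and 16.6-fold in lung BrM (4.05 ± 0.95, adjusted p = 0.011), where 3 of the 4 libraries had low pericyte RNA. Breast and lung BrM overlapped and were not called apart (-2.22 ± 0.96, adjusted p = 0.20). Mouse 51435 alone gave 5.19 in lung BrM (adjusted p = 0.064). Date as a covariate gave 6.90 (adjusted p = 0.15) in breast and 3.48 (adjusted p = 0.32) in lung BrM, and limma-voom gave 4.60 (adjusted p = 0.070) in lung BrM. Myeloid cells also make Mmp9, and in breast BrM the 10 myeloid markers summed to 731, 124, 58.6 and 0 CPM in mice 52865, 53072, 52599 and 51950, in rising order of Mmp9. The library of mouse 51950 was the smallest of that group, with 7105171 counts and 9174 genes detected. Fibroblast markers summed to 8925 and 5551 CPM in the 2 breast BrM libraries with the most Mmp9 (mice 51950 and 52599), to 1785 and 2573 CPM in the other 2, and to 875 to 2284 CPM in non-tumor brain. In lung BrM myeloid markers summed to 18.3 to 245 CPM and fibroblast markers to 170 to 2575 CPM. The 4 neutrophil markers summed to 0 to 28.6 CPM in breast BrM, 0.234 to 98.2 CPM in lung BrM and 0.190 to 43.2 CPM in non-tumor brain. The parts of myeloid, neutrophil and fibroblast RNA were not tested.

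Mmp2, the gelatinase that MMP14 activates, was low in endothelial cells, at 0.227 to 3.02 CPM in non-tumor brain, 0 to 4.67 CPM in breast and 0 to 7.01 CPM in lung BrM. The 3 endothelial groups overlapped, and Mmp2 was not called (1.07 ± 1.26 and 1.25 ± 1.26, adjusted p = 0.57 and 0.47). The PDGFRb libraries stood at 9.21, 17.4, 19.3, 47.1 and 52.5 CPM in non-tumor brain, 49.4, 139, 163 and 273 CPM in breast and 3.09, 8.05, 19.7 and 56.3 CPM in lung BrM. All but 1 of the breast BrM libraries were above the highest non-tumor library, and the lung BrM libraries spanned the non-tumor range. The breast value, 2.45 ± 0.75, missed the threshold in edgeR's test (adjusted p = 0.058) and passed it in DESeq2 (2.40, adjusted p = 0.013) and limma-voom (2.40, adjusted p = 0.028). Lung BrM was at -0.40 ± 0.74 (adjusted p = 0.78). Lung against breast BrM was at -2.85 ± 0.83 (adjusted p = 0.060), and at -3.91 (adjusted p = 0.012) without mouse 51435.

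The stromelysins were read almost only in the PDGFRb sort of BrM. Mmp3 had 0 counts in the 5 non-tumor CD31 libraries, 6 counts in total in breast and 1 in lung BrM. The PDGFRb sort had 17 counts of it in non-tumor brain, of which 16 were in mouse 53680. Breast BrM libraries stood at 0.166, 2.15, 5.14 and 14.7 CPM and lung BrM libraries at 0, 0.979, 11.4 and 76.0 CPM. The 76.0 CPM belonged to mouse 51435, and the lung BrM group overlapped the non-tumor group. Mmp3 was called in lung BrM (6.74 ± 2.10, adjusted p = 0.040) but not in breast BrM (4.81 ± 1.94, adjusted p = 0.14). The lung call ended in 13 of 19 alternatives, among them without mouse 51435 (4.28, adjusted p = 0.16), without mouse 54957 (adjusted p = 0.051) or 55169-70 (adjusted p = 0.068), and without any of non-tumor mice 54132, 54135, 56727 and 56740 (adjusted p = 0.082 to 0.092).

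Mmp10 differed widely between libraries of 1 group. The 15 CD31 libraries held 4 counts in all, in breast BrM mouse 51950. Non-tumor PDGFRb libraries held 4 counts, 2 each in mice 54135 and 56740. In breast BrM libraries of that sort Mmp10 stood at 0.830, 1.09, 65.8 and 218 CPM, with mouse 52599 highest. Lung BrM libraries had 0, 0, 0.376 and 12.2 CPM, the last in mouse 51435. The breast BrM libraries were all above the non-tumor ones, although by little in the lower pair, and Mmp10 was called in breast BrM (10.73 ± 2.42, adjusted p = 0.015). Lung BrM was at 6.16 ± 2.11 (adjusted p = 0.059). With 4 counts in the control group these fitted changes carry a wide error. Over the 13 PDGFRb libraries Mmp10 had r = 0.65 with Mmp3 and r = 0.67 with Mmp9, genes that share their libraries and depth.

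Timp1, the secreted inhibitor that binds proMMP9, was the inhibitor that rose most and rose in both sorts. Endothelial levels were 0.161, 0.991, 1.23, 1.31 and 1.59 CPM in non-tumor brain, 14.8, 35.6, 40.6, 41.0 and 58.5 CPM in breast and 37.4, 50.8, 52.7, 60.7 and 79.9 CPM in lung BrM. The BrM libraries were all above the non-tumor libraries. The rise was 36.5-fold in breast (adjusted p = 6.5e-07) and 55.5-fold in lung BrM (adjusted p = 2.7e-07) and stayed called under each of 19 alternatives. In the same order of epithelial sums, Timp1 stood at 58.5, 41.0, 40.6, 35.6 and 14.8 CPM in breast and at 50.8, 37.4, 52.7, 79.9 and 60.7 CPM in lung BrM.

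Timp1 in the PDGFRb sort stood at 1.58, 1.64, 3.39, 3.90 and 4.24 CPM in non-tumor brain, 34.6, 42.2, 183 and 308 CPM in breast and 38.9, 53.2, 77.9 and 130 CPM in lung BrM. The log2 change was 5.60 ± 0.71 in breast (adjusted p = 0.00050) and 4.69 ± 0.68 in lung BrM (adjusted p = 0.00051). Lung and breast BrM overlapped (-0.91 ± 0.65, adjusted p = 0.48). The effect did not pass the test of a difference between the sorts, at 0.41 ± 0.79 for breast (adjusted p = 0.88) and -1.07 ± 0.78 for lung BrM (adjusted p = 0.48). Date as a covariate gave 6.43 (adjusted p = 0.072) and 3.92 (adjusted p = 0.12) in that sort.

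Timp2, which both inhibits MMPs and takes part in activation of proMMP2 by MMP14, differed between lung and breast BrM, whose libraries share no date. Endothelial levels were 8.61 to 20.2 CPM in non-tumor brain and 4.98 to 15.8 CPM in breast BrM. Lung BrM endothelial libraries stood at 19.5, 22.5, 31.4 and 50.3 CPM, and the library of mice 56195-56520 at 0.0621 CPM, which is 1 count. With that library the lung change was 0.87 ± 0.75 (adjusted p = 0.39). Without it Timp2 was called in lung BrM against non-tumor (1.18, adjusted p = 0.014) and against breast BrM (1.71, adjusted p = 0.014). Mmp15 was then also called against non-tumor (0.62, adjusted p = 0.047).

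Timp2 in the PDGFRb sort stood at 37.9, 44.7, 64.2, 104 and 117 CPM in non-tumor brain and at 35.5, 39.1, 46.4 and 64.9 CPM in breast BrM, which overlapped (-0.62 ± 0.39, adjusted p = 0.36). Lung BrM libraries were above all of them, at 201, 310, 425 and 567 CPM. The log2 change in lung BrM was 2.41 ± 0.40 against non-tumor (adjusted p = 0.0013) and 3.03 ± 0.44 against breast BrM (adjusted p = 0.0017). The lowest of the 4, 201 CPM, belonged to mouse 51435, the library with the most Pdgfrb. That library alone gave 1.42 against non-tumor brain (adjusted p = 0.53) and 2.10 against breast BrM (adjusted p = 0.60). The other 3 had 36.0 to 42.2 CPM of Pdgfrb. Summed epithelial RNA was 7954 to 9973 CPM in these 3 and 6126 CPM in mouse 51435, against 1153 to 4304 CPM in breast BrM. Its part was not tested.

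Timp3, the matrix-bound inhibitor, was the most abundant of the 10 genes in normal vascular cells of both sorts. Endothelial levels were 721, 756, 954, 1753 and 1870 CPM in non-tumor brain, 688, 867, 946, 980 and 1100 CPM in breast and 390, 448, 544, 582 and 994 CPM in lung BrM. Of the lung BrM libraries, 4 of 5 were below all non-tumor libraries, and the mice 55169-70 library lay within their range. Timp3 was lower in lung BrM (-0.98 ± 0.29, adjusted p = 0.017) and not called in breast BrM (-0.38 ± 0.29, adjusted p = 0.37). The lung call ended without non-tumor mouse 53680 (-0.79, adjusted p = 0.058) or 54135 (-0.75, adjusted p = 0.062), the 2 libraries with the highest level. With date as a covariate breast BrM was called lower too (adjusted p = 0.0026).

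Timp3 in the PDGFRb sort stood at 695, 762, 810, 1191 and 1242 CPM in non-tumor brain and 373, 647, 759 and 761 CPM in breast BrM. Lung BrM mice 56195-56520, 54957 and 55169-70 stood at 82.5, 83.1 and 111 CPM, while mouse 51435 stood at 605 CPM. The low 3 are the libraries with low Pdgfrb, as the plot of Timp2 and Timp3 beside Pdgfrb shows, and the part of their low mural RNA was not tested. The log2 change in lung BrM was -2.09 ± 0.54 (adjusted p = 0.017) with all 4 libraries and -0.67 (adjusted p = 0.72) with mouse 51435 alone. It missed the threshold without mouse 54957 (-1.82, adjusted p = 0.053), 55169-70 (-1.90, adjusted p = 0.062) or 56195-56520 (-1.84, adjusted p = 0.054). Without mouse 51435 Timp3 was also called lower than in breast BrM (-2.79, adjusted p = 0.00011).

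Timp4 was read mainly in the non-tumor PDGFRb sort. Its libraries stood at 10.6, 21.96, 60.03, 64.8 and 89.2 CPM (mice 53680, 54132, 56740, 56727 and 54135), against 1.08 to 2.96 CPM in the non-tumor CD31 sort. In the same 5 PDGFRb libraries 5 astrocyte markers summed to 209, 620, 2310, 1660 and 2842 CPM, against 106 to 184 CPM in the non-tumor CD31 sort, 296 to 745 CPM in the PDGFRb sort of breast BrM and 95.6 to 298 CPM in that of lung BrM. The part of astrocyte RNA in the Timp4 level was not tested. Breast BrM libraries of the PDGFRb sort had 0, 1.011, 5.14 and 19.1 CPM, and lung BrM libraries 0.117, 0.772, 4.29 and 33.4 CPM, with mouse 51435 highest. The BrM groups overlapped the non-tumor group at their upper ends, and neither difference was called (-2.91 ± 1.48, adjusted p = 0.25, and -2.37 ± 1.45, adjusted p = 0.31). Endothelial Timp4 was at most 3.34 CPM in any library and was not called.

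**Figure D3:**
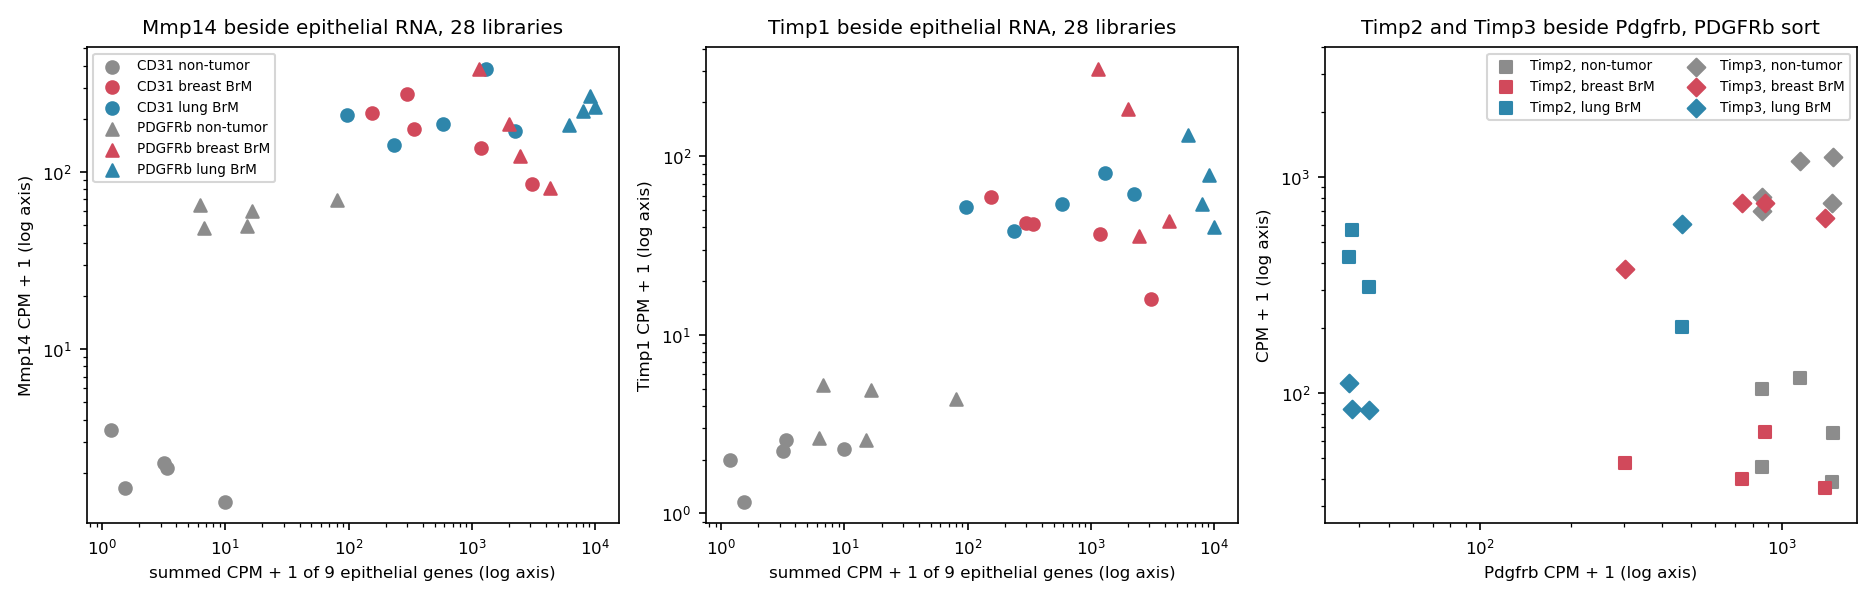
Mmp14 and Timp1 (left and middle, CPM + 1) against the summed CPM + 1 of 9 epithelial genes in 28 libraries, and Timp2 and Timp3 against Pdgfrb in the 13 libraries of the PDGFRb sort (right), all on log axes. Endothelial Mmp14 is 85.0 to 383 CPM over epithelial sums of 96.4 to 3063 CPM in BrM, and the 3 lung libraries with Pdgfrb at 36.0 to 42.2 CPM have the lowest Timp3 and the highest Timp2.

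Levels of different genes were compared per transcript length, on the authors' FPKM. In endothelial cells of non-tumor brain the order was Timp3 at 268 ± 118 FPKM (SD, n = 5), Mmp15 at 7.50 ± 1.76, Timp2 at 3.87 ± 1.27 and Timp1 at 1.74 ± 0.90, with the other 6 at 0.54 or less. The levels of Mmp15, Timp2 and Timp1 lay within a few FPKM of each other. In breast BrM Timp3 at 216 ± 30.0 FPKM was followed by Mmp14 at 74.6 ± 28.3 and Timp1 at 63.9 ± 22.3, which did not differ beyond their spread. In lung BrM Timp3 was at 138 ± 55.5, Timp1 at 95.5 ± 25.7 and Mmp14 at 93.6 ± 39.7 FPKM, also within their spread.

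For the PDGFRb sort of normal brain, Timp3 led at 241 ± 60.8 FPKM, followed by Mmp14 at 28.9 ± 3.14, Timp2 at 23.6 ± 9.999, Timp4 at 14.7 ± 10.2 and Mmp2 at 13.3 ± 7.64, of which neighbours overlapped. Breast BrM had Timp1 at 218 ± 181 FPKM, Timp3 at 145 ± 40.2, Mmp14 at 78.0 ± 46.7, Mmp9 at 75.6 ± 64.9, Mmp2 at 52.8 ± 25.1 and Mmp10 at 49.5 ± 70.9, in an order that the spread does not separate (n = 4). Lung BrM had Timp1 at 128 ± 62.5, Timp2 at 111 ± 46.3, Mmp14 at 99.0 ± 16.3 and Timp3 at 51.0 ± 58.7 FPKM (n = 4), also with overlapping spread.

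The make-up of the 10 genes' summed FPKM shifted from 1 inhibitor to a mix. Timp3 alone held 94.1 ± 2.27% of it in normal endothelial cells, 58.6 ± 6.28% in breast and 39.6 ± 9.79% in lung BrM. Mmp14 held 0.241 ± 0.187%, 19.5 ± 4.81% and 26.7 ± 5.81% of it. The 4 TIMPs together held 96.6 ± 1.24% in non-tumor brain, 76.1 ± 4.05% in breast and 69.5 ± 5.51% in lung BrM, with no overlap between BrM and non-tumor libraries. For the PDGFRb sort the TIMP share was 84.3 ± 1.77% in non-tumor brain, 58.7 ± 5.01% in breast and 66.4 ± 4.35% in lung BrM. These shares describe transcripts and not protein or activity.

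**Figure D4:**
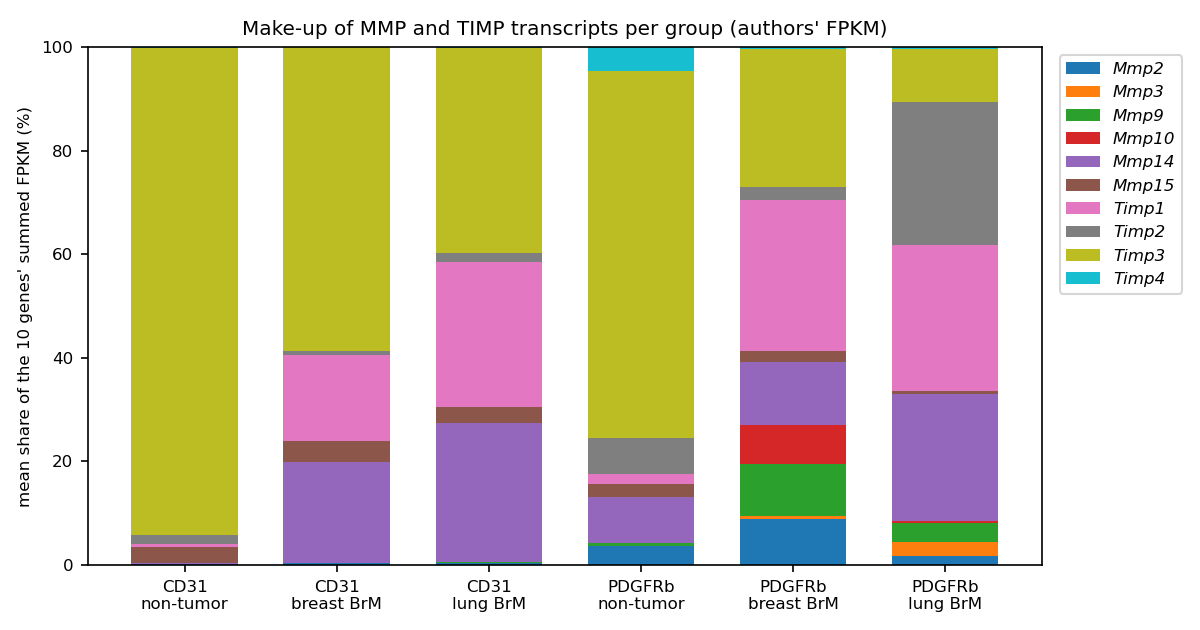
Mean share of each gene in the summed FPKM of the 10 genes (percent, bars stacked to 100) for the 6 groups of sort by state, n = 4 or 5 libraries each. Timp3 fills 94.1% of the endothelial bar in non-tumor brain and 39.6% in lung BrM, and Mmp14 grows from 0.241% to 26.7%.

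The sorts were then compared within each state. In non-tumor brain 6 of the 10 genes were higher in the PDGFRb than in the CD31 sort and 0 lower, beside 17.4% and 10.5% of all genes. They were Mmp2 (4.61 ± 1.13, adjusted p = 0.0026), Mmp9, Mmp14 (5.59 ± 0.48, adjusted p = 1.6e-09), Timp1 (1.48 ± 0.56, adjusted p = 0.046), Timp2 (2.37 ± 0.65, adjusted p = 0.0060) and Timp4 (4.65 ± 1.37, adjusted p = 0.011). Mmp9 had 221 counts against 3, a ratio of 62.3 with a 95% counting interval of 21.0 to 304. Mmp3, with 17 counts against 0, was at least 4.79-fold higher against 3 counts over the group, and its test was not called (adjusted p = 0.10). Mmp15 and Timp3 were not called between the sorts (-0.11 ± 0.30, adjusted p = 0.87, and -0.37 ± 0.42, adjusted p = 0.61). The Timp1 call was lost with limma-voom (1.65, adjusted p = 0.34), without CD31 mouse 53680 (1.20, adjusted p = 0.12), without CD31 mouse 54132, 56727 or 56740 (adjusted p = 0.062, 0.084 and 0.068) and without PDGFRb mouse 54132, 56727 or 56740 (adjusted p = 0.077, 0.055 and 0.093).

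In breast BrM Mmp2, Mmp3, Mmp9, Mmp10, Timp1 and Timp2 were higher in the PDGFRb sort, 6 of 10 with 0 lower, beside 9.0% and 7.51% of all genes. Mmp14 was not called, at 85.0 to 274 CPM in CD31 and 80.7 to 382 CPM in PDGFRb libraries (0.12 ± 0.41, adjusted p = 0.89). The largest contrast was Mmp9, with 8271 counts against 2, a ratio of 5810 (95% counting interval 1608 to 47982). With the mouse as a block, over mice that gave both sorts, 1 of the 6 calls was left, Mmp9 (log2 difference 11.86). Of all genes tested with the block, 7.26% were called. The blocked values of the other 5 kept their direction, with adjusted p = 0.051 for Mmp2, 0.067 for Mmp3, 0.099 for Mmp10, 0.15 for Timp1 and 0.13 for Timp2. Without PDGFRb mouse 52599 the calls of Mmp3 (4.97, adjusted p = 0.074), Timp1 (1.72, adjusted p = 0.052) and Timp2 (2.01, adjusted p = 0.053) were lost. The Mmp3 call also ended without CD31 mouse 51950, 52599, 52865 or 53142 (adjusted p = 0.058 to 0.059), the Timp1 call without PDGFRb mouse 51950 (1.13, adjusted p = 0.13) and the Timp2 call without CD31 mouse 52865 (adjusted p = 0.052).

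In lung BrM Mmp2, Mmp3, Mmp9, Mmp10 and Timp2 were higher and Mmp15 and Timp3 lower in the PDGFRb sort, 5 and 2 of 10, beside 10.2% and 9.36% of all genes. Mmp3 had 1703 counts against 1, a ratio of 1926 (95% counting interval 345 to 76112), of which 1483 were in mouse 51435. Mmp10, with 243 counts against 0, was at least 91.6-fold higher, and 238 of those counts were in the same mouse. Timp2 was higher by 3.92 ± 0.70 (adjusted p = 0.00021), Mmp15 lower by -2.19 ± 0.34 (adjusted p = 3.2e-05) and Timp3 by -1.42 ± 0.46 (adjusted p = 0.028). With the block Mmp2 (4.01, adjusted p = 0.31) and Mmp10 (8.17, adjusted p = 0.18) were not called. With mouse 51435 alone the Timp3 difference was -0.07. Timp3 was not called without CD31 mice 55169-70 (adjusted p = 0.088) or without PDGFRb mouse 54957, 55169-70 or 56195-56520 (adjusted p = 0.08, 0.1 and 0.071). Mmp2, at 2.99 ± 1.08 (adjusted p = 0.049), was lost in 12 of 18 alternatives, among them without PDGFRb mouse 51435 (1.91, adjusted p = 0.23) or 56195-56520 (adjusted p = 0.081), and without CD31 mouse 51435, 51697, 55169-70 or 56195-56520 (adjusted p = 0.072 to 0.088). Mmp10 was lost without PDGFRb mouse 51435 (4.09, adjusted p = 0.26).

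Other genes of the system were counted from 3 lists. For all of them, the lung BrM group of the PDGFRb sort includes the 3 libraries with low Pdgfrb and high epithelial RNA. The part of this make-up in the list results was not tested. The shares of all genes called higher and lower, for reading these counts, were 18.6% and 11.4% in CD31 breast, 20.4% and 14.5% in CD31 lung, 6.30% and 2.69% in PDGFRb breast and 9.91% and 7.58% in PDGFRb lung BrM. Among 17 other MMPs, 7 were tested in endothelial cells, with 1 higher and 0 lower in breast and 0 called in lung BrM. From the PDGFRb sort 11 were tested, with 2 higher and 0 lower in breast and 2 higher and 1 lower in lung BrM. The collagenase Mmp13 was the one in endothelial cells of breast BrM (3.48 ± 1.19, adjusted p = 0.043), at 0.875 to 2.64 CPM against 0 to 0.511 CPM in non-tumor brain. It also had 0 counts in all 5 non-tumor PDGFRb libraries. In that sort it stood at 0 to 4.14 CPM in breast BrM, where it was called higher (8.35 ± 1.80, adjusted p = 0.020), and at 0.376 to 13.02 CPM in lung BrM. Mmp11 rose in the PDGFRb sort of breast BrM (2.56 ± 0.59, adjusted p = 0.017), from 18.7 to 49.1 CPM without tumor to 48.7 to 422 CPM. There, in lung BrM, the macrophage elastase Mmp12 was higher (4.81 ± 1.38, adjusted p = 0.028) and the membrane-anchored Mmp17 lower (-3.14 ± 0.93, adjusted p = 0.032).

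Of 18 ADAM and ADAMTS proteases, 15 were tested in endothelial cells, with 7 higher and 2 lower in breast and 6 higher and 2 lower in lung BrM. Over all genes 18.6% were higher and 11.4% lower in breast, and 20.4% and 14.5% in lung BrM. The aggrecanase Adamts4 rose by 6.39 ± 0.46 in breast (adjusted p = 5.6e-08) and 6.32 ± 0.46 in lung BrM (adjusted p = 5.7e-08), from 0.170 to 1.63 CPM to 52.4 to 126 and 59.2 to 124 CPM. Adam19 rose by 6.17 ± 0.63 (adjusted p = 2.0e-06) and 5.91 ± 0.62 (adjusted p = 2.7e-06), and Adam12 was the largest change in breast BrM, 6.91 ± 0.79 (adjusted p = 6.4e-06). All 18 were tested in the PDGFRb sort, with 3 higher and 0 lower in breast and 1 higher and 3 lower in lung BrM. Over all genes these shares were 6.30% and 2.69% in breast and 9.91% and 7.58% in lung BrM. Adamts9 (4.05 ± 0.94, adjusted p = 0.017), Adamts4 (3.31 ± 0.85, adjusted p = 0.028) and Adamts2 (3.23 ± 0.88, adjusted p = 0.036) were the 3 in breast BrM, while Adamts15 had the largest fall in lung BrM (-5.45 ± 0.90, adjusted p = 0.0013).

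Of 19 activators, receptors and other inhibitors, 16 were tested in endothelial cells, with 7 higher and 3 lower in breast and 8 higher and 3 lower in lung BrM. The shares over all genes were 18.6% and 11.4% in breast and 20.4% and 14.5% in lung BrM. Pcsk6, a proprotein convertase, rose by 7.32 ± 0.75 in breast (adjusted p = 2.2e-06) and 6.89 ± 0.74 in lung BrM (adjusted p = 3.4e-06). Cd44, the hyaluronan receptor that docks MMP9 and MMP14 at the cell surface, rose by 6.91 ± 1.07 (adjusted p = 0.00013) and 6.54 ± 1.05 (adjusted p = 0.00017). Of the PDGFRb sort 18 were tested, with 4 higher and 0 lower in breast and 5 higher and 2 lower in lung BrM. The shares over all genes were 6.30% and 2.69% in breast and 9.91% and 7.58% in lung BrM. Plaur, the urokinase receptor, rose by 3.74 ± 0.37 in breast (adjusted p = 9.2e-05) and 6.40 ± 0.42 in lung BrM (adjusted p = 9.7e-07). Cd44 rose there too (3.89 ± 0.71, adjusted p = 0.0048, and 5.31 ± 0.76, adjusted p = 0.00044). In lung BrM it stood at 258 to 639 CPM.

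Between lung and breast BrM, 7, 15 and 16 genes of these lists were tested in endothelial cells. Of them 1 was called, Mmp13, with 0 counts in all 5 lung BrM libraries. Over all genes 0.578% were higher and 1.55% lower in lung. Plaur in the PDGFRb sort was higher in lung BrM (2.66 ± 0.39, adjusted p = 0.0017) and Mmp17 (-3.66 ± 0.97, adjusted p = 0.043) and Adamts15 (-4.66 ± 0.88, adjusted p = 0.0090) lower. There 11, 18 and 18 genes of the lists were tested, beside 3.08% of all genes higher and 2.39% lower. 3 of the 4 lung BrM libraries in this comparison are those with low Pdgfrb.

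The genes whose levels ran most closely with each member were ranked by Pearson r of log2(CPM + 1) over the 28 libraries, which differ together in sort and state, so r is a description. Mmp9 was closest to Thy1 (r = 0.98), Col6a3 (0.95) and Loxl2 (0.94), and Mmp2 to Col5a3 (0.93), genes of fibroblast and collagen matrix. Mmp14 was closest to Lamb1 (0.96), which encodes a laminin chain of the basement membrane. Pxdn (0.94), the enzyme that crosslinks collagen IV, had rank 3 for it. Not all of the closest 3 genes of each member are named, and those left out include genes that are not of the matrix. Mmp10 was closest to Has2 (0.95), a hyaluronan synthase, Timp1 to Plp2 (0.94), Timp2 to Selenbp1 (0.93), Timp3 to Epas1 (0.90), Timp4 to Dbx2 (0.92), Mmp15 to Tspan12 (0.85) and Mmp3 to Actc1 (0.83).

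Among the members themselves, Mmp14 and Timp1 ran together over the 15 CD31 libraries (r = 0.98) and the 13 PDGFRb libraries (r = 0.90). In the PDGFRb sort Mmp9 ran with Timp1 (r = 0.94), and Timp2 ran opposite to Mmp15 (r = -0.90) and Timp3 (r = -0.77). These values span all 3 states of a sort. The 3 lung BrM libraries with low Pdgfrb had the highest Timp2 and the lowest Timp3 and Mmp15 of the PDGFRb sort.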

How the data were processed

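RNA of sorted brain endothelial and mural cells was read in 28 libraries made with a low-input SMART-Seq kit and Nextera XT, per the labels. These keep no strand and carry no molecular identifiers, so antisense reads cannot be told apart, and counting intervals and floors cover counting error only. Build mm10 is named in the submitters' processing notes. They also list the aligner STAR 2.7.9a and the counter RSEM 1.3.3. For statistics they list limma 3.50.3 and edgeR 3.36.0. The deposited expected counts are the authors' unscaled estimates per gene. The log2 values (1 table per sort, 18665 genes) are the authors' normalised log2 counts, and the authors' FPKM values, scaled by transcript length and depth, cover the same genes, with a file for each sort. Each sort's table was normalised separately, so FPKM are not compared across sorts by a test.

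Expected counts were rounded, filtered with filterByExpr, scaled by TMM and tested with edgeR 4.0.16 (quasi-likelihood, robust, R 4.3.3), with Benjamini-Hochberg adjustment over all genes tested. Comparisons within a sort used its 3 groups and comparisons between sorts all 6. CPM use 1 TMM scaling of 28 libraries. Every per-sample column had its sample. Of 53647 gene IDs, 52093 matched a symbol, and the rest held 0.182% to 1.57% of counts.

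Members and gene lists were chosen with earlier results of these data known. Named genes are the 10 members, up to 3 called genes with the largest changes of each list, and the genes with the highest r to a member. One gene that this rule names is not reported here. Groups and mouse numbers come from the titles. 2 lung labels name 2 mouse numbers each. In 13 mice with both sorts, the same animal gave both libraries, and deviations from the group means correlated at over 0.1 in 3 pairs (range -0.12 to 0.33, median 0.01). Between the most alike replicates, chi-square divided by its degrees of freedom was 17.6. Replicates are mice or pools. The test was tried on simulated data. Alternatives were RLE scaling, DESeq2 1.42.0, limma-voom (limma 3.58.1), limma-trend on the deposited log2 values, 2 other filters, leaving out libraries or mice, date as a covariate and the mouse as a block.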

Additional observations from a re-analysis of the deposited data

Results flagged for a closer look

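Mouse 51435 stood apart from the other 3 lung BrM libraries of the PDGFRb sort as the highest for Mmp3 (76.0 CPM), Mmp9 (79.0 CPM), Mmp10 (12.2 CPM), Timp3 (605 CPM) and Timp4 (33.4 CPM). The same library had 465.7 CPM of Pdgfrb against 36.0 to 42.2 CPM in the other 3. Mouse 53680 of the non-tumor PDGFRb sort held 1.011 CPM of Mmp3 while the other 4 libraries had 0 to 0.0450 CPM. Among breast BrM endothelial libraries, mouse 53072 held 0.292 CPM of Mmp3, which is 5 counts. Among lung BrM endothelial libraries, mouse 51697 was the highest for Mmp14 at 383 CPM. Each was set apart by a gap to the nearest library that is large for the range of its group, a test that chance meets in about 1 of 20 groups. Of the 60 groups, those without variation or with no level above that of 3 counts were not tested.

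The effect of BrM differed between the sorts for Mmp14, by a log2 difference (PDGFRb minus CD31 sort) of -5.47 for breast and -5.54 for lung BrM. For Mmp15 it differed by -2.09 for lung BrM, each from an interaction term.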

How the results depend on the processing

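Of 101 values of the 10 genes with a test, 41 were called. Of these, 0 changed direction under any alternative, and 13 stayed called under all of them: Mmp14 in CD31 breast BrM, in CD31 lung BrM, between the sorts in non-tumor brain and in both tests of the difference between sorts, Timp1 in CD31 breast BrM and lung BrM, Mmp9 between the sorts in all 3 states, Mmp2 and Timp4 between the sorts in non-tumor brain, and Mmp3 between the sorts in lung BrM. Depth limits Mmp3, Mmp9 and Mmp10, which lie at 0 or a few counts in many libraries. Where a cause is not given, the cause was not tested.

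The number of genes called moved by over 1.5 times as follows. For the breast BrM effect between sorts it was 2 with DESeq2 (10.9% of all genes called) and 2 with limma-voom (7.94%), against 1. The fit with mouse 51435 alone has 1 library for the lung PDGFRb sort, so its counts are left out. With date as a covariate the number was 0 for PDGFRb breast, 2 for PDGFRb lung and 0 for PDGFRb lung against breast. The shares of all genes called there were 0.675%, 3.39% and 0.599%. Without the pooled mice the number was 4 for PDGFRb lung, 1 for PDGFRb lung against breast and 1 for CD31 lung against breast. The shares of all genes called were then 3.94%, 0.629% and 3.33%. On the deposited log2 values limma-trend called 4 for PDGFRb lung against breast, beside 6.95% of all genes. The replicate block (mouse) left 1 between sorts in breast BrM, beside 7.26% of all genes. Other calls that the mouse pairing ended are given beside their results. Leaving out 1 library gave 0 to 1 for CD31 lung against breast, 2 to 5 for CD31 lung, 2 to 5 for PDGFRb lung against breast, 4 to 7 for PDGFRb lung and 3 to 6 between sorts in breast BrM. The share of all genes called is not given for these fits, so the ranges cannot be read against it.

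Values that were not called changed sign as follows, as log2 differences. With date as a covariate, CD31 lung against breast gave -1.04 for Mmp14, -2.32 for Mmp2, -0.23 for Timp1, -0.33 for Timp2 and 0.04 for Timp3, CD31 lung gave -0.66 for Timp2, and PDGFRb lung against breast gave -2.17 for Timp4. With mouse 51435 alone, Mmp14 was -0.05 for lung against breast and -0.36 between sorts, Mmp2 0.92 for PDGFRb lung, and the lung effect between sorts 0.25 for Timp3 and 0.37 for Timp4. Without the pooled mice, Mmp14 was -0.27 between sorts in lung BrM, Mmp2 0.03 for PDGFRb lung, and Timp4 0.57 for the lung effect between sorts. Between sorts in lung BrM, Mmp14 was -0.06 with at least 1 CPM in 4 libraries, -0.07 with no filter and -0.03 without mouse 54135. Mmp15 between sorts in non-tumor brain was 0.06 with DESeq2 and 0.06 with RLE scaling. With limma-voom, Mmp14 was -0.20 between sorts in breast BrM, Mmp2 -0.60 for CD31 lung against breast and -0.11 for CD31 lung, Mmp3 -0.20 for PDGFRb lung against breast, Timp2 -0.58 for CD31 lung, and the breast effect between sorts -0.53 for Timp1 and 0.17 for Timp2. With limma-trend, Mmp2 was -0.56 and -0.09 in the same 2 comparisons, Timp2 -0.53 for CD31 lung and Mmp3 -0.17 for PDGFRb lung against breast. The replicate block gave -0.19 for the Timp1 breast effect between sorts.

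Leaving out 1 library, PDGFRb lung against breast ranged from -0.003 to 0.78 for Mmp14, -0.44 to 3.10 for Mmp3 and -1.91 to 2.15 for Timp4. CD31 lung against breast ranged from -0.51 to 0.59 for Mmp2 and -1.82 to 0.19 for Timp4. Between sorts, Mmp14 ranged from -0.50 to 0.37 in breast BrM and -0.11 to 0.35 in lung BrM, and Mmp15 from -0.24 to 0.11 in non-tumor brain. The breast effect between sorts ranged from -0.30 to 0.72 for Timp1, -0.41 to 0.12 for Timp2 and -0.37 to 0.02 for Timp3. The lung effect ranged from -1.81 to 1.12 for Mmp9 and -3.78 to 0.20 for Timp4.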

Other observations

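Reck, a membrane-anchored inhibitor of MMP2, MMP9 and MMP14, was chosen for description here after its values were seen. In endothelial cells it fell from 276 to 359 CPM in non-tumor brain to 25.2 to 42.6 CPM in breast BrM (log2 change -3.10 ± 0.38, adjusted p = 1.2e-05) and 5.34 to 41.7 CPM in lung BrM (-3.35 ± 0.38, adjusted p = 5.8e-06). Neither BrM group overlapped the non-tumor group. In the PDGFRb sort it stood at 41.3 to 76.4 CPM in non-tumor brain, 1.49 to 26.9 CPM in breast BrM (-1.80 ± 0.74, adjusted p = 0.15) and 3.09 to 23.8 CPM in lung BrM (-2.45 ± 0.76, adjusted p = 0.040). That lung group includes the libraries with low Pdgfrb, and the part of their low mural RNA was not tested. Bsg, which encodes the MMP inducer basigin and is abundant in brain endothelium, was named after its values were seen too, and fell in endothelial cells of breast BrM (-3.45 ± 0.28, adjusted p = 1.8e-07) and lung BrM (-2.61 ± 0.27, adjusted p = 2.0e-06).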
